A study of Mus musculus with 24 samples.

Results

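The cytosolic ribosomal protein genes were followed through hippocampal RNA of C57BL/6 mice in 24 sequencing libraries. The members were all gene symbols that begin with Rpl or Rps and a digit, plus Rplp0, Rplp1, Rplp2 and Rpsa, without the S6 kinases and without symbols marked as pseudogenes, and with at least 240 reads summed over the libraries. This rule found 84 of the 24062 genes in the table, 50 named for the large ribosomal subunit, 33 for the small one, and Rps19bp1, which encodes a binding protein of S19 and not a ribosomal protein. The symbols Rpl10l and Rps27rt had 0 reads and Rpl39l had 78, so these 3 fell short, and all 84 members passed the filter on low counts that left 16313 genes for testing. No measured difference between groups was used to choose them.

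The mice were either knockout (KO) for the interleukin-1 receptor 1 (IL-1R1), in neurons by the series title, or wild type (WT). Within each genotype some mice were controls and others had been stressed by social defeat. There were 5 KO stress, 6 KO control, 6 WT stress and 7 WT control libraries. The labels do not name the promoter or Cre line behind the deletion, the age or sex of the mice, or whether each library was a separate mouse, so each p-value speaks of the spread among libraries, part of which may be technical.

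Il1r1, the targeted gene, averaged 5.54 ± 1.77 CPM (counts scaled to a common library size) in KO stress libraries (SD, n = 5) and 5.56 ± 1.45 CPM in WT stress libraries (n = 6), and 3.44 ± 1.21 CPM in KO controls (n = 6) against 3.35 ± 1.31 CPM in WT controls (n = 7), and KO and WT differed by −0.0047 ± 0.27 under stress and 0.04 ± 0.26 in controls on the log2 scale (SE; edgeR adjusted p = 0.997 and 1.0). The labels do not say which exons were deleted and other cells of the hippocampus also express the gene, so its whole-tissue count does not check the genotype labels. Total counts ran from 25711872 to 35148198 per library. The 13 libraries with the higher replicate numbers of each group held 4238.5 to 8394 CPM of the ribosomal RNA precursor Rn45s, and the 11 with the lower numbers (KO stress 1 and 2, KO control 1 to 4, WT stress 1 and 2, WT control 1 to 3) held 24298 to 50424 CPM. They are called high-numbered and low-numbered libraries here, a division found in these counts and not named by the labels. Summed markers of the neighbouring thalamus and habenula were 878 CPM in KO stress 3, 650 CPM in KO stress 5 and 842 CPM in WT stress 5, against 141 to 272 CPM in the other 10 high-numbered libraries. Low-numbered libraries held 224 to 643 CPM of them.

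A ribosome is built from ribosomal RNA and one copy of nearly every ribosomal protein, so cells make these proteins in matched amounts. Most of their mRNAs start with a cytosine followed by a run of pyrimidines, the 5′ terminal oligopyrimidine (TOP) tract, through which the kinase mTORC1 and the RNA-binding protein LARP1 set how much is translated. In neurons, ribosomal protein mRNAs are also among the transcripts found in axons and dendrites. Regulation of TOP mRNAs acts largely on translation, which mRNA counts do not measure.

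Ribosomal protein genes took a mean of 2.21% of all counts (SD 0.255, n = 24 libraries). Rplp1, an acidic stalk protein of the large subunit that helps recruit elongation factors (chromosome 9, 61913284 to 61914542, minus strand, mm10), was the most abundant at 715 ± 124 CPM (SD, n = 24). Rpl13a followed at 664 ± 94.7 CPM, then Rpl3, which lies near the peptidyl transferase centre, at 617 ± 59.4 CPM, Rpl4 at 574 ± 56.6 CPM and the laminin receptor homologue Rpsa at 539 ± 73.3 CPM. Of the 83 members with an annotated coding transcript, 72 had a mean of at least 100 CPM, and the median was 254 CPM, against 21.6 CPM over 14677 tested coding genes.

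Per kilobase of annotated transcript, the order changed, since members' transcripts run from 271 to 3706 bases (median 729, against 2796 for all tested coding genes). Rplp1 again led at 1433 CPM per kilobase, followed by Rps21 at 1054, Rps15 at 903, Rpl41 at 889 and Rps29 at 790 CPM per kilobase. This order depends on the length used. Per kilobase of coding sequence, Rpl41, with 75 coding bases, led at 5180 CPM, and Rplp1 stood at 2090. Rps20, whose transcript of 3706 bases holds 357 coding bases, had 45.9 CPM per kilobase of transcript and 476 of coding sequence. The median was 318 CPM per kilobase over 50 large subunit members and 371 CPM per kilobase over 32 small subunit members.

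At the low end, Rpl3l had 0.37 CPM per kilobase, Rpl26 1.18, Rpl30 7.45, Rps27 9.10 and Rpl34 23.2 CPM per kilobase. In plain CPM the same 5 genes were lowest, at 0.51 for Rpl3l, 0.62 for Rpl26, 3.14 for Rps27, 4.25 for Rpl30 and 11.1 for Rpl34. Rpl3l is the form of Rpl3 known from skeletal and cardiac muscle. The other 4 encode core ribosomal proteins, Rpl26, Rpl30 and Rpl34 of the large subunit and Rps27 of the small one.

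Copies of these genes are spread through the mouse genome, mostly as processed pseudogenes. Of the 50-base windows of the Rps27 transcript, 98.6% were also found in another annotated gene, and the share was 76.4% for Rpl30, 71.3% for Rpl26 and 50.6% for Rpl34, against a median of 60.0% over 83 members. The next highest shares after Rps27 were 95.1% for Rpl35, at 200.4 CPM, and 93.8% for Rpl5, at 257 CPM. How the authors' counting treated reads that match several genes is not given in the sources used here, so levels of single members are uncertain, and the part of sharing in the low counts was not tested. These 40-base coding stretches show what is shared, and all of their bases stand unbroken in other annotated genes: 7 for Rpl26 and for Rps27, 14 for Rpl30 and 9 for Rpl34 (GENCODE vM21 on mm10, read from the transcripts named in that annotation, 5′ to 3′, with no part set in capitals).
Rpl26 coding bases 85 to 124: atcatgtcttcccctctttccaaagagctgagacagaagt
Rps27 coding bases 161 to 200: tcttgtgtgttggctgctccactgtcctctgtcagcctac
Rpl30 coding bases 280 to 319: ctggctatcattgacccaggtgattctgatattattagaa
Rpl34 coding bases 26 to 65: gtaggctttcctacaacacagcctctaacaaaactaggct

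**Figure D1:**
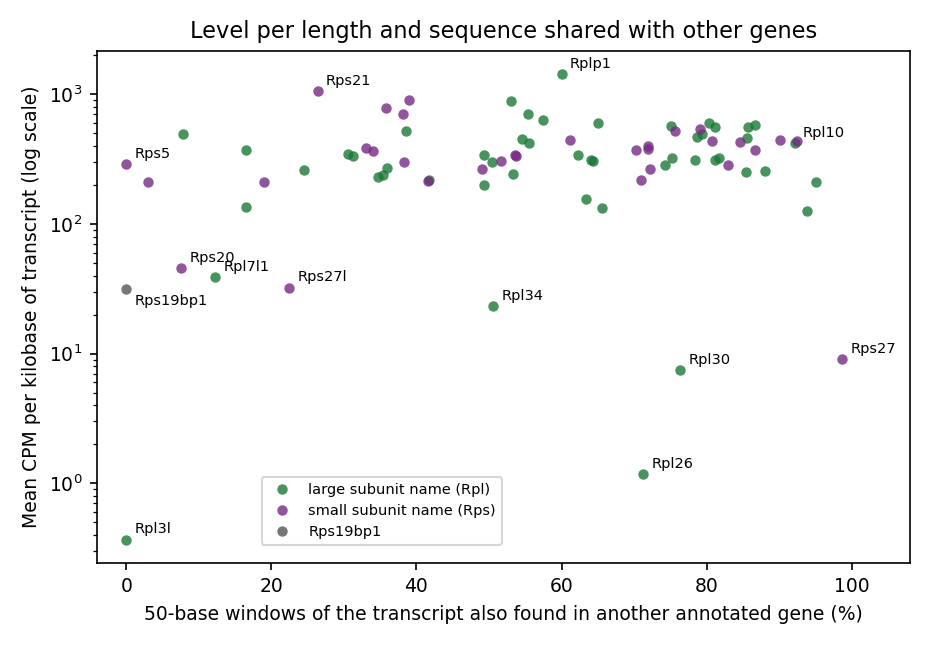
Mean CPM per kilobase of transcript (log axis) against the percentage of a transcript's 50-base windows found in another annotated gene, 1 point per member with a coding transcript. Rpl34, Rps27, Rpl30 and Rpl26 lie at 23.2, 9.10, 7.45 and 1.18 CPM per kilobase, and Rpl3l lies lowest at 0.37 with 0% shared.

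The start of the transcript is where the TOP tract lies. In the RefSeq promoter windows of GRCm38.p6, 63 members were matched. Of these, 24 (38.1%) had a run of at least 8 C or T bases at any annotated start, against 11.0% of 27025 genes. A run counted as at a start if any of its bases lay within 5 bases before or 5 after it. Such a run need not cross the start itself. A run of at least 10 bases was found in 28.6% of the 63 members and 5.82% of all genes. The letters CTTTCC from 5 bases before to 10 after the start were present in 12.7% of the members and 0.670% of all genes. The following windows reach from 20 bases before to 20 bases after the annotated start. They show long runs across the start in Rpl27a, Rpl15, Rpl35a and Rps6. Beside these stand Rpl37a and Rpl3l, whose longest runs at the start are 3 and 4 bases, that of Rpl3l ending just before it. Rpl35a has 3 annotated starts, and the longest runs at the other 2 are 4 and 1 bases. Of 2 annotated starts of Rpl3l 1 is shown, and the longest run at the other is also 4 bases but begins after the start. Capitals mark a run of at least 5 bases at the start, counted in the same way, and an annotated start can lie some bases away from the one a cell uses.
Rpl27a (chr7:109519175-109519214, plus strand): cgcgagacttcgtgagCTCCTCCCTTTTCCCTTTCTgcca
Rpl15 (chr14:18270967-18271006, minus strand): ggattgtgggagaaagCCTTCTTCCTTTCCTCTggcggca
Rpl35a (chr16:33056462-33056501, plus strand): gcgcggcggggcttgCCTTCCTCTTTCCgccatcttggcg
Rps6 (chr4:86857348-86857387, minus strand): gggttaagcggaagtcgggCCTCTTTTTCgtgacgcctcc
Rpl37a (chr1:72711240-72711279, plus strand): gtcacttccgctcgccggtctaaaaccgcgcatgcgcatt
Rpl3l (chr17:24727806-24727845, plus strand): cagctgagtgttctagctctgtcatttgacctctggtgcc

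Within the 250 bases before and 50 after the start, on either strand, CCGGAAG, the core letters bound by ETS factors such as GABPA, were found in 39.7% of the 63 members and 9.93% of all genes. GCCATNTT, the core letters of the YY1 site, were found in 20.6% of the members and 6.96% of all genes. TATAAA, the TATA box letters, were found in 11.1% and 15.7%. A match describes the letters in this window only.

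Members rose and sank together from library to library, more than they differed between groups. The share of counts was 2.00%, 2.45%, 2.17%, 2.23% and 1.94% in KO stress libraries 1 to 5. In KO controls the lowest, median and highest shares were 1.75%, 2.21% and 2.40%. In WT stress libraries they were 2.22%, 2.29% and 2.73%, and in WT controls 1.66%, 2.32% and 2.41%. All 4 groups overlapped, and the 2 lowest libraries of the study, WT control 1 and KO control 2, were controls of different genotypes. Counting error is far smaller than these gaps: the 95% Wilson interval of WT stress 1 is 2.72% to 2.73% and that of WT control 1 is 1.66% to 1.67%.

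**Figure D2:**
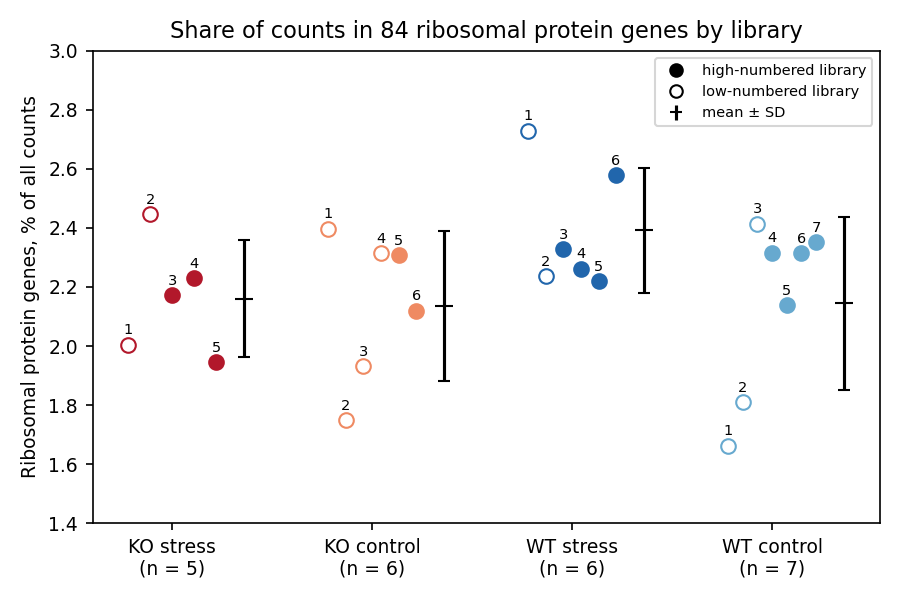
Percentage of all counts in the 84 ribosomal protein genes, 1 point per library with its replicate number, filled for high-numbered and open for low-numbered libraries, with the group mean and SD. Group means lie between 2.14% and 2.39%, and single libraries range from 1.66% to 2.73%.

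The pattern ran through nearly the whole set. In WT stress 1, 84 of 84 members lay above their own mean over the 24 libraries, and in WT stress 6 and WT control 3, 83 did. In KO control 2, 0 members did, and in WT control 1, KO stress 1 and KO stress 5, 1 member did. The median member deviated from its mean by 0.33 on the log2(CPM + 0.5) scale in WT stress 1 and by −0.39 in WT control 1. Both subunits moved alike, since the summed CPM of large over small subunit members stayed between 1.51 and 1.60 in every library.

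**Figure D3:**
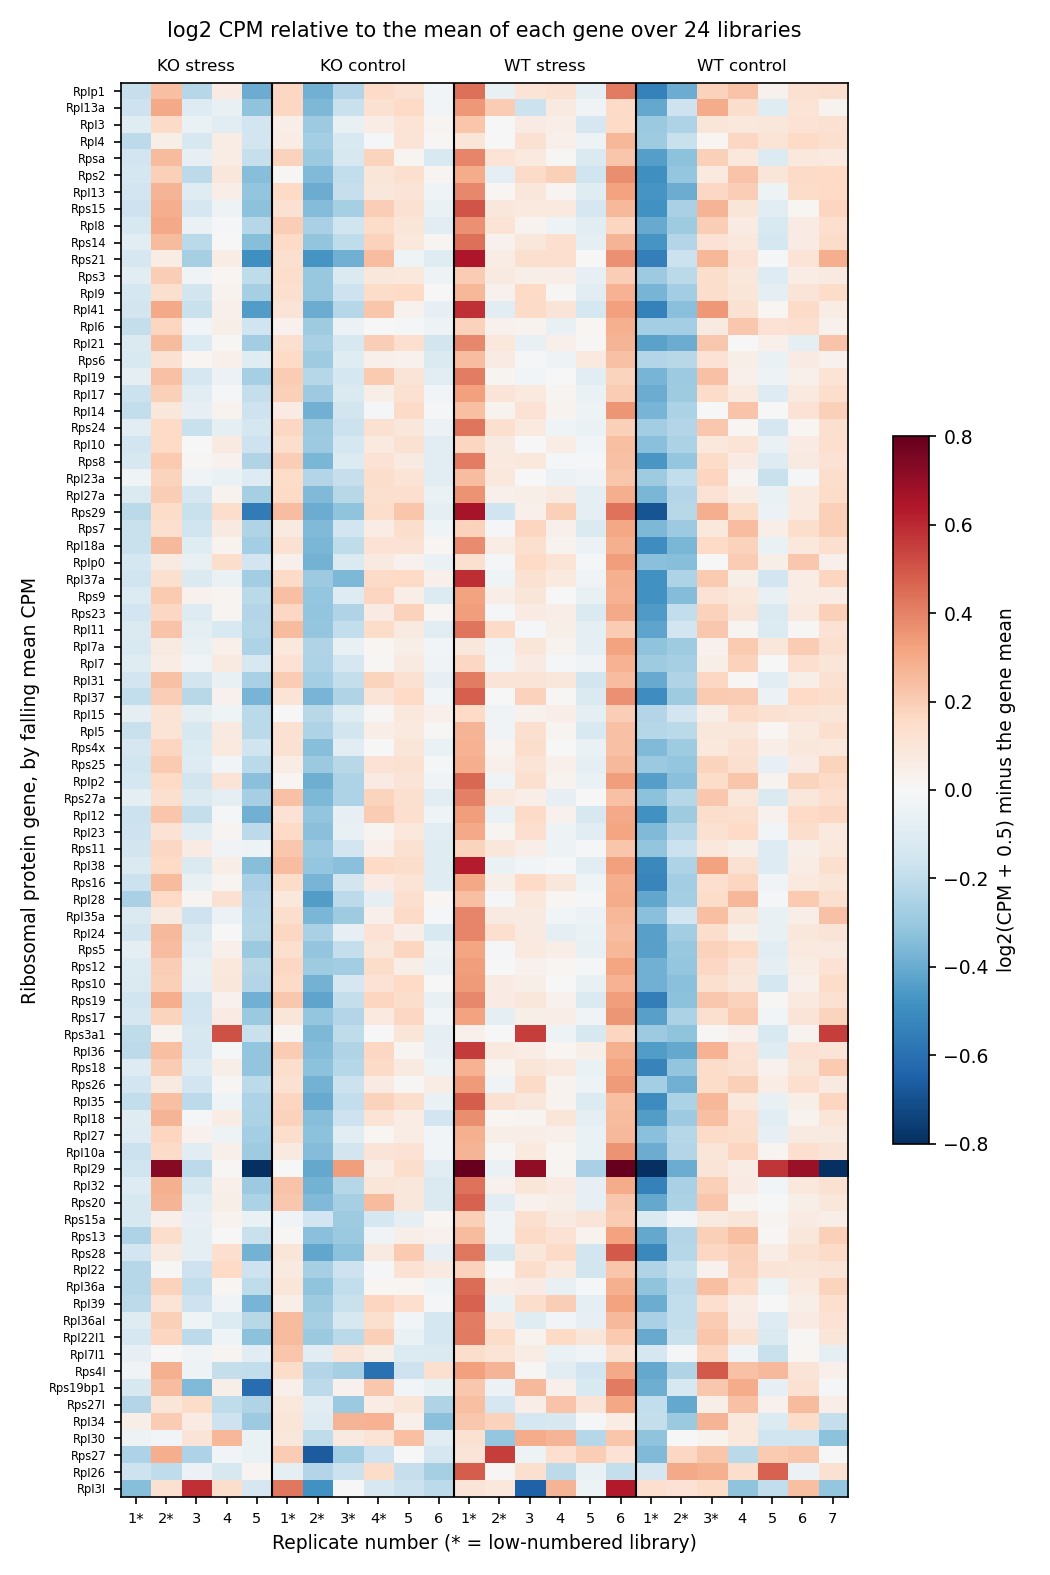
Each member (rows, by falling mean CPM) in each library (columns, by group and replicate number), coloured by log2(CPM + 0.5) minus the gene's mean over 24 libraries. Whole columns are red or blue, as in WT stress 1 and WT control 1, while Rpl29 and Rps3a1 break the pattern.

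The spread within groups shows how closely members kept step. The median member had a within-group SD of 0.196 on the log2 scale, and 0.070 once the members' median deviation in each library had been subtracted, and 79 of 84 members became narrower. The subtraction uses the members themselves, so some narrowing follows by construction. Treated the same way with their own medians, 77 nuclear-encoded respiratory chain genes went to 0.078 (before, 0.183), 77 mitochondrial ribosomal protein genes to 0.104 (before, 0.162) and 38 proteasome genes to 0.080 (before, 0.136). For 39 translation initiation factors the SD hardly moved, 0.116 after and 0.117 before. The tightest members after subtraction were Rpl27a at 0.032 and Rpl9 at 0.034.

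Other short transcripts deviated in the same direction as the members in the libraries where the members lay highest and lowest. In WT stress 1 and WT control 1, the median deviation was 0.21 and −0.26 for 990 other coding genes with transcripts under 1000 bases, and 0.32 and −0.28 for respiratory chain genes. For 2496 coding genes with transcripts of at least 5000 bases it was −0.10 and 0.22, the opposite direction. This did not hold in every library. In KO stress 4 the members stood at 0.026, the short transcripts at −0.047 and respiratory chain genes at −0.078. Among 72 members above 100 CPM, the 24 with the shortest coding sequence (75 to 408 bases) had a median within-group SD of 0.223, the 24 in the middle 0.200 and the 24 with the longest (582 to 1257 bases) 0.177. The part of transcript length, RNA quality or library preparation in the shared deviation was not tested. Fewer cells of a type and less RNA per cell cannot be told apart in these bulk samples.

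Single members departed from the set. Rpl29, a large subunit protein (chromosome 9, 106429454 to 106431568, plus strand), had 149, 275, 144, 167 and 67.3 CPM in KO stress libraries 1 to 5. Its lowest, median and highest values were 125, 170 and 210 CPM in KO controls, 139, 221 and 309 CPM in WT stress libraries and 63.3, 174 and 268 CPM in WT controls. It was the most variable member, with a within-group SD of 0.604, and 78.5% of its windows were shared with other genes, 84 in number. Rps15a, a small subunit protein, was the steadiest, with a within-group SD of 0.084 and values between 139 and 194 CPM in all 24 libraries.

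The first group comparison asked whether social defeat altered these mRNAs in WT mice. The difference did not pass the test for any member: 0 of 84 had an adjusted p under 0.05 (edgeR's quasi-likelihood test, Benjamini-Hochberg adjustment over 16313 genes), against 0.135% of all genes. At an unadjusted p under 0.05 the members again numbered 0, against 4.41% of all genes, and DESeq2 and limma voom called 0. For 0 members were the WT stress and WT control libraries free of overlap, against 0.282% of all genes. The fitted values nevertheless leaned one way, since 83 of 84 members had a log2 fold change above 0, against 49.5% of all genes, with a median of 0.13 against −0.0013 and a median SE of 0.105 per member. Members share libraries and deviate together, so these 83 are not 83 separate observations.

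Rpl22l1, the paralogue of the large subunit protein Rpl22, had the smallest p in WT stress. It averaged 82.2 ± 7.93 CPM in WT stress libraries (SD, n = 6) and 71.3 ± 10.2 CPM in WT controls (n = 7), and its log2 fold change was 0.20 ± 0.10 (SE; edgeR adjusted p = 1.0). The lowest, median and highest values were 73.9, 80.6 and 96.9 CPM in WT stress and 54.6, 72.8 and 84.6 CPM in WT controls, so the groups overlapped. Rpl39, a small protein lining the exit tunnel of the large subunit (chromosome X, 37082520 to 37085402, minus strand), averaged 92.9 ± 13.8 CPM in WT stress and 80.8 ± 10.3 CPM in WT controls, with a log2 fold change of 0.20 ± 0.10. Those of Rpl37a and Rps14 were 0.23 ± 0.12 and 0.21 ± 0.11. The only member below 0 was Rpl26 at −0.22 ± 0.24, whose mean is under 1 CPM.

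The median over members depended on which libraries were compared. In low-numbered libraries alone, 2 of WT stress and 3 of WT control, it was 0.34, while in the high-numbered ones, 4 against 4, it was 0.016, with 55 of 84 members above 0. Without WT control 1, whose share of counts was the lowest of all, it was 0.079. With limma voom, which weights libraries by quality, it was 0.069. Marker genes of other tissue that differed with WT stress were the red blood cell genes Alas2 (2.50 ± 0.28, edgeR adjusted p = 9.62e-05) and Hba-a2 (2.09 ± 0.30, adjusted p = 0.00135) and the endothelial genes Ly6a and Vwf, 2 of 5 red blood cell and 2 of 10 endothelial markers. Summed red blood cell markers were 105 to 150 CPM in WT stress against 69.9 to 86.5 CPM in WT controls, and their part in the members' values was not tested. Choroid plexus markers had a median of −0.55 with 0 of 10 above 0, and thalamus and habenula markers one of 0.31 with 11 of 12 above 0, with 0 genes of either list past the threshold.

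In KO mice, 0 of 84 members passed the test for stress against control, against 0.00613% of all genes. At an unadjusted p under 0.05 there were 0 members, against 3.97% of all genes, and DESeq2 and limma voom also called 0. No member had groups free of overlap (0.3% of all genes did). Of the 84 fitted values 25 were above 0, against 51.4% of all genes, with a median of −0.028 and a median SE of 0.1145. The values nearest the threshold were Rps15a at 0.07 ± 0.06, Rpl39 at −0.12 ± 0.11, Rps19bp1 at −0.14 ± 0.14 and the stalk-base protein Rpl12 at −0.11 ± 0.12. The median was above 0 in low-numbered libraries (0.076) and without the 3 high-numbered libraries high in thalamus markers (0.051), and below 0 in high-numbered libraries (−0.13). Leaving out single libraries moved it between −0.092 (without KO stress 2) and 0.020 (without KO stress 5), so its sign rested on single libraries. Of 5 red blood cell markers 1 passed, higher in KO stress, and all 5 were above 0 (median 1.25). Summed red blood cell markers were 96.0 to 133 CPM in KO stress against 69.4 to 90.6 CPM in KO controls. Choroid plexus markers had a median of 0.88 with 10 of 10 above 0, none past the threshold. Thalamus and habenula markers had one of 0.50 with 12 of 12 above 0, also none past it. The part of these lists in the members' values was not tested.

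Whether the response to stress differed between genotypes is asked by the interaction, the stress effect in KO mice minus that in WT mice. None of the 84 members passed, nor did any of the 16313 genes (0%). At an unadjusted p under 0.05 there was 1 member, 1.19%, against 2.35% of all genes, and DESeq2 and limma voom called 0 members. That member was Rpl39, whose interaction was −0.32 ± 0.15 (edgeR adjusted p = 1.0), followed by Rpl22l1 at −0.27 ± 0.15, Rpl37a at −0.31 ± 0.18 and Rpl31 at −0.26 ± 0.15. The median over members was −0.16 with a median SE of 0.1555, and 4 of 84 were above 0, against 50.3% of all genes. It was −0.25 in low-numbered and −0.13 in high-numbered libraries, and −0.10 without WT control 1. Respiratory chain genes had a median of −0.15, with 8 of 77 above 0. That of choroid plexus markers was 1.39, with 10 of 10 above 0, and that of hippocampal neuron markers 0.21, with 10 of 13 above 0. No gene of these 3 lists passed, and the part of tissue makeup in the members' values was not tested.

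Without stress, no difference between KO and WT was detected. Of 84 members 0 passed the test, against 0% of all genes, and no member had groups free of overlap (0.0552% of all genes did). At an unadjusted p under 0.05 there were 2 members (2.38%, against 3.02% of all genes), and DESeq2 and limma voom called 0. These 2 were Rps15a, at 157 ± 11.5 CPM in KO controls (SD, n = 6) and 172 ± 8.43 CPM in WT controls (n = 7), a log2 fold change of −0.13 ± 0.05, and Rpl26, at 0.515 ± 0.113 and 0.750 ± 0.181 CPM in the same groups, −0.54 ± 0.25 (edgeR adjusted p = 1.0 for both). Next came the pseudogene-annotated Rps4l at −0.24 ± 0.14 and Rps27, a zinc-finger protein of the small subunit, at −0.24 ± 0.17. The median was −0.0085 with a median SE of 0.1052, 33 of 84 were above 0, against 48.6% of all genes, and its sign was turned by leaving out KO control 2 (0.048) and by taking the low-numbered libraries alone (0.093). Thalamus and habenula markers had a median of 0.62 with 12 of 12 above 0, and hippocampal neuron markers one of −0.39 with 1 of 13 above 0, none past the threshold, and their part was not tested.

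Under stress, KO libraries lay below WT libraries for every fitted value, but again 0 of 84 members passed, against 0% of all genes, and no member had groups free of overlap (0.245% of all genes did). The count of fitted values above 0 was 0 of 84, against 49.1% of all genes, and the median was −0.17 with a median SE of 0.1147 per member. At an unadjusted p under 0.05 there were 6 members (7.14%, against 4.71% of all genes), and DESeq2 and limma voom called 0. The WT stress libraries enter both this comparison and that of WT stress with WT controls, so the values of these 2 comparisons are not independent.

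Rpl39 had the smallest p here. Its values were 70.8, 88.6, 72.9, 80.6 and 63.4 CPM in KO stress libraries 1 to 5, against a lowest, median and highest of 77.7, 92.3 and 114 CPM in WT stress libraries. KO stress 2 and 4 reached into the WT range, and the log2 fold change was −0.30 ± 0.11 (edgeR adjusted p = 0.798). Rps21, a small subunit protein with a short transcript, had 371, 425, 338, 424 and 290 CPM in KO stress, against 409, 446 and 638 CPM as the lowest, median and highest in WT stress, a log2 fold change of −0.38 ± 0.15. Rps15a stood at −0.15 ± 0.06 and Rpl22l1 at −0.28 ± 0.11, and Rpl37a and Rps26, also under an unadjusted p of 0.05, at −0.28 ± 0.13 and −0.22 ± 0.11. The ratio of Rpl22l1 to Rpl22 was 0.583 ± 0.063 in KO stress (n = 5) and 0.635 ± 0.060 in WT stress (n = 6). It was 0.590 ± 0.073 in KO controls (n = 6) and 0.574 ± 0.054 in WT controls (n = 7). By class it was 0.631 ± 0.055 in low-numbered and 0.564 ± 0.054 in high-numbered libraries. Over all 24 libraries the ratio ranged from 0.508 to 0.699.

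The median under stress was below 0 within both classes of libraries. It was −0.15 in low-numbered ones, KO stress 1 and 2 against WT stress 1 and 2. Their shares of counts overlapped, at 2.00% and 2.45% in KO stress and 2.73% and 2.24% in WT stress. In high-numbered ones, KO stress 3 to 5 against WT stress 3 to 6, it was −0.18. When each library was left out, the median lay between −0.24 and −0.13. Fitted values of choroid plexus markers were above 0 for 10 of 10 genes (median 1.34), of thalamus and habenula markers for 12 of 12 (median 0.82) and of oligodendrocyte markers for 10 of 10 (median 0.37), while 12 of 13 hippocampal neuron markers were below 0 (median −0.29), with 0 genes of these lists past the threshold. Summed choroid plexus markers were 805 to 2075 CPM in KO stress against 23.0 to 2165 CPM in WT stress libraries. Without the 3 high-numbered libraries high in thalamus markers the members' median was −0.14, with 0 of 84 above 0. The KO stress libraries left, 1, 2 and 4, still held 624, 529 and 174 CPM of thalamus and habenula markers. The remaining WT stress libraries held 142 to 274 CPM of them. The part of tissue makeup in these values was not tested.

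**Figure D4:**
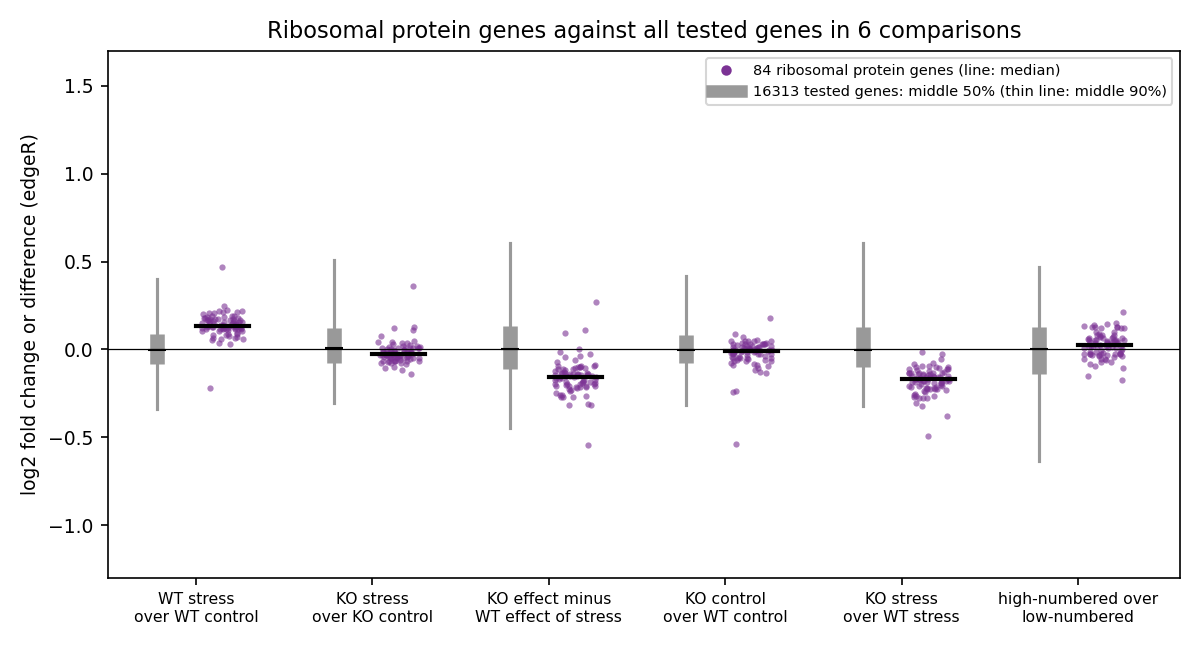
Fitted log2 fold changes of the 84 members (purple points, black line at their median) beside the middle 50% and 90% of 16313 tested genes (grey, thick and thin) in 6 comparisons. Member medians are 0.13, −0.028, −0.16, −0.0085, −0.17 and 0.026 from left to right, and 0 members passed an adjusted p of 0.05 in any of the 6.

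Some members were set for description by their roles. Rplp0, the scaffold of the stalk and a common reference gene in PCR, averaged 290 ± 26.4 CPM in KO stress, 284 ± 31.0 in KO controls, 322 ± 29.4 in WT stress and 294 ± 44.7 CPM in WT controls (SD). Rps6, the target of the S6 kinases, had log2 fold changes of 0.03 ± 0.08 for stress in KO, 0.13 ± 0.08 for stress in WT, −0.0085 ± 0.08 between KO and WT controls and −0.10 ± 0.08 between stressed KO and WT mice. For Rps29, among the shortest members, the same 4 values were −0.10 ± 0.17, 0.22 ± 0.16, −0.0021 ± 0.16 and −0.32 ± 0.17. For Rpsa they were 0.0080 ± 0.12, 0.17 ± 0.11, 0.03 ± 0.11 and −0.13 ± 0.12. Rplp1 stood at −0.26 and Rpl3 at −0.11 between stressed KO and WT mice. None of these had an adjusted p under 0.05. Fau, which encodes S30 as a fusion and lies outside the symbol rule, stood at −0.21 ± 0.14 in KO against WT under stress.

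Paralogues were counted at unequal levels. Rps27l, a paralogue of Rps27, had 15.1 ± 2.13 CPM in KO stress, 15.3 ± 1.84 in KO controls, 17.6 ± 1.96 in WT stress and 16.2 ± 2.58 CPM in WT controls, and stood at a mean of 5.31 times Rps27 over 24 libraries. Rps27 is the member with the most shared sequence, so this ratio carries the counting doubt stated above. Rpl36al stood at 0.673 of Rpl36a, Rpl7l1 at 0.181 of Rpl7 and Rps4l at 0.148 of Rps4x. Rpl3l, counted in every library, had a mean of 0.51 CPM, or 0.00082 of Rpl3.

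Genes around the ribosome were given as lists. In the 5 comparisons of stress and genotype, 0 genes passed among 39 initiation factors, 12 elongation factors, 46 ribosome biogenesis factors, 16 genes of RNA polymerase I and its factors, 23 of the mTORC1 pathway, 14 of ribosome quality control and 77 mitochondrial ribosomal protein genes. In KO against WT under stress, the medians were −0.06 for initiation factors, −0.06 for elongation factors, −0.06 for biogenesis factors, 0.03 for RNA polymerase I genes and −0.09 for mitochondrial ribosomal protein genes, beside −0.17 for the members. Respiratory chain genes had a median of −0.14, with 3 of 77 above 0, and proteasome genes one of −0.11, with 6 of 38 above 0, so lists outside the ribosome leaned the same way. For WT stress against control the first 5 medians were −0.00099, 0.03, 0.01, −0.00052 and 0.05, beside 0.13 for the members, 0.08 for respiratory chain genes (65 of 77 above 0) and 0.02 for proteasome genes (26 of 38). The difference between the members and any of these lists was not tested.

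The classes of libraries differed in a large part of the transcriptome but not detectably in these genes. Between high-numbered and low-numbered libraries, with group as a term, 0 of 84 members passed, against 20.8% of all genes (11.2% higher and 9.56% lower in high-numbered libraries). At an unadjusted p under 0.05 there were 6 members (7.14%, against 33.5% of all genes), and limma voom called 4, against 28.9% of all genes, and DESeq2 0. The classes were found in these same counts, so their p-values describe the division and do not test it. The members' median was 0.026 with a median SE of 0.0793, and 54 of 84 were above 0, against 50% of all genes. The share of counts was 2.25 ± 0.149% in high-numbered libraries (SD, n = 13) and 2.15 ± 0.342% in low-numbered ones (n = 11), with both the highest and the lowest library of the study in the low-numbered class.

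Rpl4, a large subunit protein lining the exit tunnel, had the smallest p, at 600 ± 48.5 CPM in high-numbered and 544 ± 51.8 CPM in low-numbered libraries, a log2 fold change of 0.13 ± 0.05 (edgeR adjusted p = 0.0861). Rplp0 stood at 0.15 ± 0.06, Rpl22 at 0.13 ± 0.06, Rpl34 at −0.18 ± 0.08 and Rpl7l1 at −0.09 ± 0.04. Rps3a1 stood at 0.21 ± 0.10, with 187, 216 and 310 CPM as the lowest, median and highest in high-numbered libraries against 165, 211 and 217 CPM in low-numbered ones. Among other genes of translation, 5 of 39 initiation factors and 1 of 12 elongation factors passed. All were higher, beside 11.2% of all genes higher and 9.56% lower. Other lists went down or both ways. Higher and lower were 0 and 2 of 16 RNA polymerase I genes, and 0 and 2 of 14 quality control genes. They were 0 and 3 of 77 mitochondrial ribosomal protein genes, 3 and 4 of 23 mTORC1 pathway genes, and 1 and 1 of 46 biogenesis factors. Pabpc1, the poly(A)-binding protein, rose by 0.34 ± 0.06 (edgeR adjusted p = 0.000197), the elongation factor Eef1a1 by 0.25 ± 0.04 (adjusted p = 0.000246) and Eif3e by 0.26 ± 0.06 (adjusted p = 0.00192), and all 3 are TOP mRNAs themselves. Of 19 other known TOP genes 5 rose and 0 fell, against 11.2% of all genes higher and 9.56% lower. The difference between this list and the members was not tested.

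Of 13 hippocampal neuron markers 11 rose and 1 fell in high-numbered libraries, and their part in the members' values was not tested. Without the 3 high-numbered libraries high in thalamus markers, 8 of 84 members (9.52%) passed, against 31.1% of all genes, all 8 higher in high-numbered libraries (Rpl4, Rpl7a, Rpl14, Rpl22, Rplp0, Rps2, Rps3a1 and Rps7). Within WT controls 5 of 83 members tested passed (6.02%), against 17.6% of all genes. Within single groups the members' median was −0.15 in KO stress, 0.073 in KO control, −0.11 in WT stress and 0.22 in WT control libraries.

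**Figure D5:**
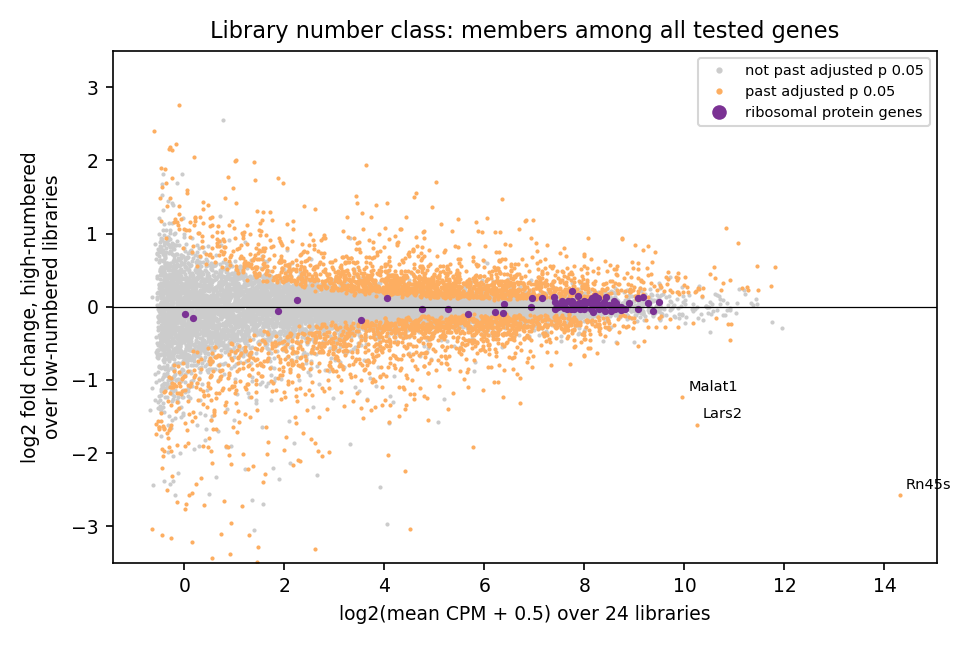
Log2 fold change between high-numbered and low-numbered libraries against log2(mean CPM + 0.5) for 16313 tested genes, those past an adjusted p of 0.05 in orange and the 84 members in purple, with 7 genes beyond the axis not drawn. The members lie in a band around 0, mostly at high CPM, and Rn45s, whose counts separate the classes, lies far below it with Lars2 and Malat1.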

How the data were processed

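The authors deposited raw read counts for each gene and library, 24 libraries in all. The submitters' processing notes name STAR, DESeq2 and mm10 without versions. Which counter and annotation were used, and how strand and shared reads were treated, is not given in the sources used here. Between 70.9% and 75.8% of the counts from 1 to 10 were even in each library, a sign that both mates of a read pair may have been counted. The deposited normalized values and comparison table were not used. No 2 libraries agreed within sampling noise (smallest chi-square per gene 5.79).

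Genes were filtered with filterByExpr (minimum count 10) and tested with edgeR 4.0.16 (robust quasi-likelihood fit, TMM) in 1 fit of 4 group means with 20 residual degrees of freedom, with the library number class as a further term for that comparison. The threshold was an adjusted p of 0.05. Each SE was computed from the log2 fold change and its F statistic. CPM use TMM-scaled library sizes, and deviations use a pseudocount of 0.5. The fit was tested on simulated data. Without molecular identifiers, the Wilson intervals cover counting error alone. They treat every count as independent, so they are too narrow if both mates of a pair were counted. Alternatives were RLE factors, TMM without the members, DESeq2 1.42.0, limma 3.58.1 voom, no filter, other sets of libraries, and the replicate number as a block.

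Transcript lengths and shared windows come from GENCODE vM21 and promoters from RefSeq. The transcript taken for a gene has the best APPRIS rank, and among equals is complete and shortest. Named are the 4 members with the smallest p in each comparison (fewer than 4 passed), a set list of members, and the 5 highest and lowest levels. Rpl29, Rps3a1, Rpl27a, Rpl9 and Rps20 were named after their values were seen. So were Rpl37a and Rps26 in KO against WT under stress, Rpl34 and Rpl7l1 between library classes, and the members whose sequences are shown. One gene of the set list is not reported here. The members, lists and alternatives were chosen with earlier results of these data known.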

Additional observations from a re-analysis of the deposited data

Results flagged for a closer look

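In 104 groups of 5 to 7 libraries tested for a single distant library (26 items in 4 groups), 3 were marked, and chance marks about 1 in 20. Of the 26 items, 3 were summaries over the members and the rest were single genes. Rps3a1, a small subunit protein, had 302 CPM in KO stress 4, against 184 to 216 CPM in the other KO stress libraries. The same gene had 310 CPM in WT control 7, against 169 to 218 CPM in the other WT controls. Rps27 had 4.76 CPM in WT stress 2, against 2.99 to 3.61 CPM in the other WT stress libraries.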

How the results depend on the processing

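For stress in WT, stress in KO, the interaction and both comparisons of KO with WT, 0 members passed under each alternative run, leave-one-out included. Between library classes the count of members was 8 without the 3 high-numbered libraries high in thalamus markers (31.1% of all genes passed), 5 within WT controls (17.6% of all genes passed; the members were Rpl4, Rpl7a, Rpl14, Rplp0 and Rps2, all higher in high-numbered libraries), 4 with limma voom (28.9% of all genes passed; Rpl4 and Rpl22 were higher, Rpl34 and Rpl7l1 lower) and 0 to 1 when each library was left out, the 1 being Rpl4 without KO stress 2. The cause of these differences was not tested. The members' median moved by more than 1 SD of the libraries' median deviation (0.184) in low-numbered libraries for stress in WT, at 0.34, and within WT controls for the library classes, at 0.22. With each library left out, the median ran from 0.079 to 0.17 for stress in WT, −0.092 to 0.020 for stress in KO, −0.23 to −0.10 for the interaction, −0.070 to 0.048 for KO against WT in controls, −0.24 to −0.13 under stress and −0.014 to 0.072 for the library classes. With the replicate number as a block, the medians were 0.16, −0.0024, −0.15, 0.016 and −0.15 for the first 5 of these, and 0 members passed. Same-numbered libraries did not deviate together throughout (correlations of −0.28 to 0.49). Differently numbered libraries were not compared with them, so these correlations cannot decide whether the numbers pair the samples. Each group of 5 to 7 libraries and a median SE of 0.105 to 0.1555 per member limit what differences could be detected.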

Other observations

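Rps3a1 (chromosome 3, 86137940 to 86142702, minus strand) stood near 300 CPM in 3 of 24 libraries, one each of KO stress (replicate 4, 302 CPM), WT stress (replicate 3, 310 CPM) and WT control (replicate 7, 310 CPM). In the other 21 libraries it ranged from 165 to 238 CPM. The members' median deviation in these 3 libraries was 0.026, 0.080 and 0.12 on the log2 scale. Of its transcript windows 71.0% are shared with other annotated genes.

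Rpl29 was highest in WT stress 1, at 309 CPM, and lowest in WT control 1, at 63.3 CPM. After subtraction of the members' median its within-group SD was 0.504, against 0.070 for the median member. In WT control 7 it had 86.9 CPM, while the members' median deviation there was 0.12.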
